A study of Homo sapiens with 3 samples.

Results

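The genes described here are 40 genes of the ATF4 programme, the set of genes through which cells answer a shortage of amino acids and other stresses that act on protein synthesis. They were taken from a list of gene names that was chosen with earlier results of these data known. Each was represented by its brightest probe, the probe with the highest mean log2 signal over the arrays. All 40 had a probe among the 22435 named genes of the array, 33 with 1 probe and 7 with 2 probes, and 39 of the 40 were well above background on all 3 arrays. The exception was the amino acid transporter SLC1A4, whose probe was not well above background on the cordycepin array.

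ATF4 is a basic leucine zipper transcription factor whose protein is controlled mainly through translation. Stress-sensing kinases phosphorylate the initiation factor eIF2, general protein synthesis slows, and the ATF4 mRNA is then translated more, a chain of events called the integrated stress response. The ATF4 protein, often paired with a C/EBP family partner, raises transcription of genes for amino acid synthesis and import, for charging of tRNA, and for further factors such as DDIT3 that act in cell death when the stress lasts. The arrays measured mRNA, so the eIF2 and ATF4 proteins themselves were not observed.

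RNA came from A549, a long-established line of human lung adenocarcinoma cells. The control cells received 0.1% DMSO, the vehicle, and the treated cells received either 60 μg/mL cordycepin, an adenosine analog, or 100 μg/mL cordyceps, whose preparation the labels do not describe. All treatments lasted 48 h, and per the labels the medium of every condition also held serum, penicillin-streptomycin, nicotinamide, troglitazone and zinc sulfate. There was 1 array per condition (n = 1), so each value below sets one array against another without replicate error or p-value, and a change in the mix of cell states could not be told apart from a change in RNA per cell.

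Values are signals, the background-subtracted brightness of a probe in the scanner's units, given in the order control, cordycepin, cordyceps. Ratios are log2 differences after each array was set to its own 75th percentile, which lay at signals of 260.1 (control), 224 (cordycepin) and 260.2 (cordyceps). A gene was said to rise or fall when the ratio was at least 2-fold. A rough measure of probe error came from 3356 genes with more than 1 probe: the robust SD of the log2 ratio at 1 probe was 0.25 for cordycepin over control, 0.20 for cordyceps over control and 0.28 for cordycepin over cordyceps. This spread covers the probes of these arrays and says nothing of how separate cultures would vary.

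A corner of the cordyceps array stood apart. There, 11.1% of the 2855 genes tested were at least 2-fold higher than on the control array, against 2.79% of 12047 genes elsewhere, whereas the shares at least 2-fold lower were 3.33% and 3.3%. The excess lay mainly among dim probes: of genes with a control signal under 300, 24.6% of 1132 were higher in the corner and 5.55% of 4089 elsewhere, whereas with a control signal of 1000 or more the shares were 1.45% of 1106 and 1.09% of 5065. The brightest probes of 6 members lie in this corner, namely TRIB3, STC2, ASNS, PSAT1, WARS1 and MARS1. Of these, STC2 had a control signal under 300 and the others were above 1000. Their results are marked as corner probes, and the map of member probes on the array shows where they sit.

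**Figure D1:**
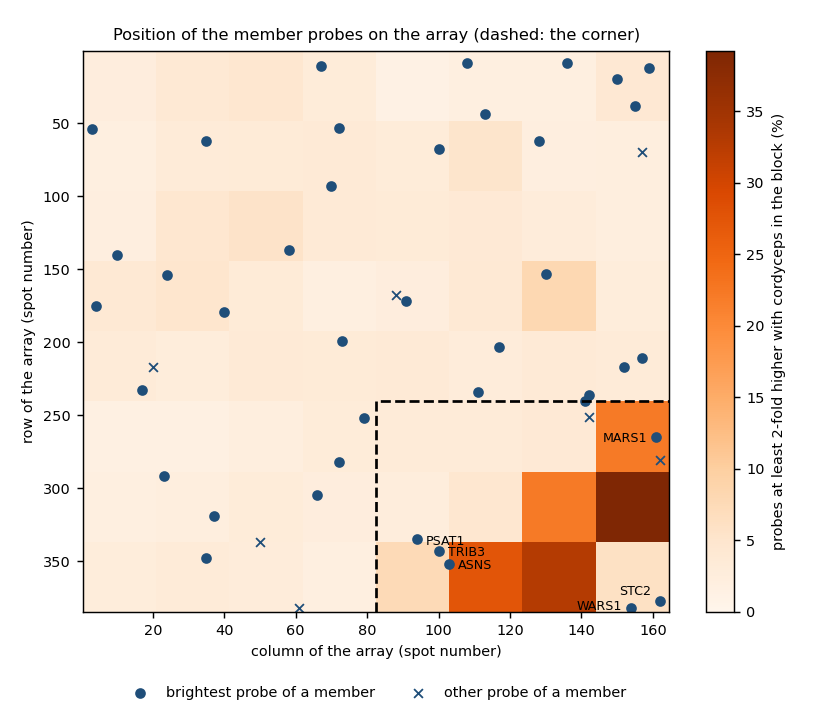
Each block of the array (row and column in spot numbers) is coloured by the percentage of its probes that were at least 2-fold higher on the cordyceps array than on the control array, with member probes drawn on top (circles: brightest probe; crosses: other probe) and the corner dashed. The dark blocks lie in the corner, which holds the brightest probes of 6 members, while 34 members lie in the pale remainder.

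The labelled cell type was checked against markers. KRT8, KRT18, KRT19, EPCAM and CDH1, which mark epithelial cells, were well above background on all 3 arrays, although KRT19 was lower with cordyceps (signals 1451, 1523 and 612) and EPCAM was lower with cordycepin (1066, 323 and 742). Of the alveolar type 2 markers, the surfactant genes SFTPA1 and SFTPB were not well above background on any array. SFTPC (85.0 and 55.7) and NKX2-1 (22.7 and 38.7) were dim but detected on the control and cordycepin arrays and not on the cordyceps array, where SFTPC was at least 2.45-fold lower than on the control array. Of other cell types, CD3E, COL3A1 and PDGFRB, with the brightest probe of PECAM1, were not well above background on any array. The endothelial gene CDH5 was detected on the control and cordycepin arrays (61.3 and 57.5), and a dimmer PECAM1 probe on the control array (24.2). CD14 (3387, 1559 and 2183), PTPRC (99.5, 71.8 and 72.9) and COL1A1 (337, 239 and 208) were detected, and at their brightest probes their scaled ratios were below 0 on both treated arrays by less than 2-fold.

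The programme was higher with cordyceps than with cordycepin. Since the list was chosen with earlier results of these data known, the shares of all named genes beside its counts serve as description only. Against control, 20 of the 40 members rose with cordyceps and 0 fell, where 4.39% of 14902 named genes rose and 3.3% fell. The members' median log2 ratio was 1.01, a 2.01-fold difference, and that of all named genes was -0.12. With cordycepin, 4 of 40 members rose (CHAC1, DDIT3, NUPR1 and PPP1R15A) and 1 fell (DDIT4), where 6.01% of 15762 named genes rose and 3.61% fell. Here the members' median was 0.16 against -0.05 for all named genes, and the remaining 35 members moved by less than 2-fold.

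Scaling bears on the smaller of these numbers. When arrays were scaled to their medians instead, the median of all genes moved from -0.05 to -0.31 for cordycepin and from -0.12 to 0.16 for cordyceps. Under that scaling 3 members rose and 2 fell with cordycepin (596 and 1179 of all named genes, in place of 947 and 569), and 26 rose with 0 falling with cordyceps (962 and 208 of all named genes, in place of 654 and 492). Measured from the median of all genes, the members' median was 0.21 for cordycepin and 1.13 for cordyceps with the 75th percentile. It was 0.20 and 1.12 with the median, and 26 and 35 of 40 members lay above that median under both scalings. Such values could hardly differ, because this change of scaling moves every ratio of a comparison by the same amount. They were 0.07 and 1.01 with no detection filter (23 and 35 of 40 members above). With another background correction they were 0.14 and 1.00 (25 of 39 and 36 of 40). With the corner left out they were 0.14 and 1.08 (21 and 31 of 35).

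The cordyceps counts were also taken without the corner. Among the 34 members outside it, 15 rose and 0 fell, where 2.79% of 12047 named genes outside it rose and 3.3% fell. The median of these members was 0.96, against -0.12 for all named genes outside the corner. Of the 6 corner members 5 rose, where 11.1% of 2855 corner genes did, with a median of 1.47 against -0.11 for those genes. When every corner probe was left out before scaling, 35 members could be tested, MARS1 through its other probe, and 18 rose with a median of 1.07, where 3.52% of 12495 genes rose.

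**Figure D2:**
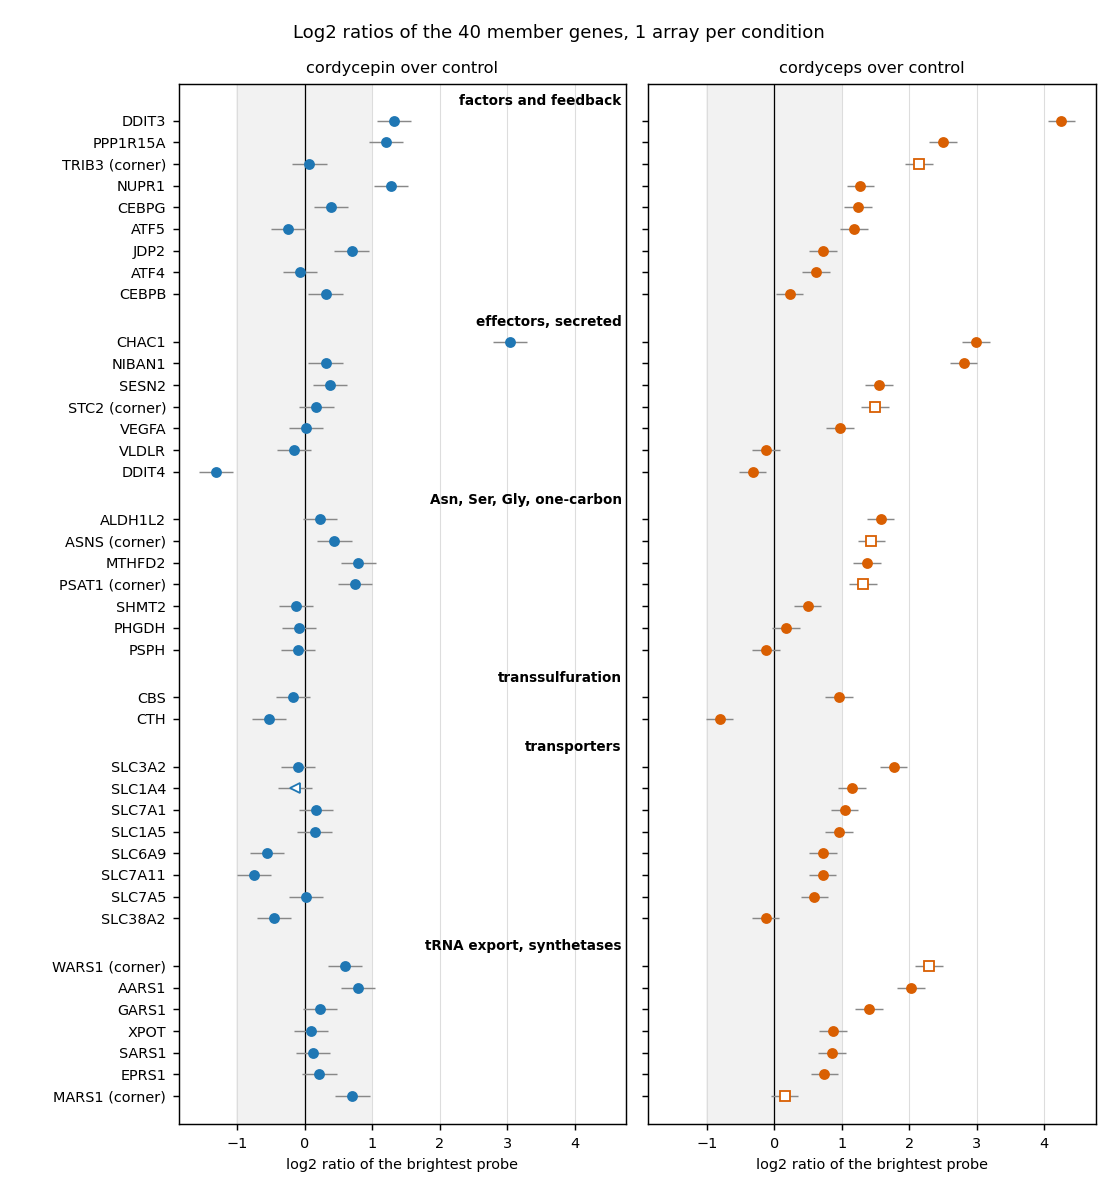
Log2 ratio of the brightest probe of each of the 40 members over control, by role, for cordycepin (left) and cordyceps (right), 1 array per condition. Grey bars are the robust SD of the ratio at 1 probe (0.25 and 0.20), the shaded band spans less than 2-fold, open squares are corner probes and the open triangle is a bound. On the right 20 points lie beyond the band to the right, and on the left 4 do and 1 lies beyond it to the left.

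ATF4 and its C/EBP partners bind a composite DNA element, whose core is TGATGNAA, where N is any base. RefSeq promoters on GRCh38.p14, running from 250 bases before to 50 bases after an annotated start, were searched for this core on both strands. It reads TTNCATCA when it lies on the strand opposite to the gene. Of the 40 members 34 had a promoter in the table, and 11 of these 34 genes held the core, or 20% of their 55 promoters, against 3.62% of all 35116 promoters and 2.69% of the 22199 promoters of protein-coding genes. NUPR1, VEGFA, ALDH1L2, PSPH, SHMT2 and SLC7A11 were not in the table. A match is a description of the letters and not a site of binding, and no match says only that this window lacks them. As the members were listed as genes of the ATF4 programme and ATF4 binds this element, their larger share is not independent of how the list was made.

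The stretches shown are those of the 7 members in which the core lies wholly before the start. They come from every role group of the list except the transsulfuration enzymes. Each is written 5′ to 3′ on the strand of its gene, with up to 30 bases on either side and ending at the start where that comes first, and the capitals mark the core. AARS1 lies at chr16:70289656-70289723 on the minus strand, ASNS at chr7:97872439-97872506 on the minus strand, CEBPG at chr19:33374041-33374108 on the plus strand, CHAC1 at chr15:40953232-40953299 on the plus strand, GARS1 at chr7:30594815-30594877 on the plus strand, JDP2 at chr14:75427976-75428021 on the plus strand and SLC1A5 at chr19:46784874-46784941 on the minus strand.
AARS1: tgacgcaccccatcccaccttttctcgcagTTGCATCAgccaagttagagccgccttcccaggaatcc
ASNS: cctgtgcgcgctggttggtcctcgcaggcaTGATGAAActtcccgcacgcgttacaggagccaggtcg
CEBPG: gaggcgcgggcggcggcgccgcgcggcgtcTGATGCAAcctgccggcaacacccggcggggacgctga
CHAC1: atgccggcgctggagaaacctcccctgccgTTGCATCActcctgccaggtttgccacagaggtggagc
GARS1: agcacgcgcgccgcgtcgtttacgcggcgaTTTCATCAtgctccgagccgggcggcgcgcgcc
JDP2: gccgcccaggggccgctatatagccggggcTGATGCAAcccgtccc
SLC1A5: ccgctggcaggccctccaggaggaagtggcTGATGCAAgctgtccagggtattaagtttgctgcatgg
CEBPG, JDP2 and SLC1A5 share the form TGATGCAA and ASNS has TGATGAAA, all on the strand of the gene. AARS1 and CHAC1 carry TTGCATCA, which is TGATGCAA read from the other strand, and GARS1 carries TTTCATCA, which is TGATGAAA read from the other strand. In SLC1A4, MARS1, SLC7A1 and SLC3A2 the core overlaps the annotated start or lies after it. By role, 4 of 7 transporters with a promoter, 3 of 7 tRNA genes, 2 of 8 factors, 1 of 6 effectors, 1 of 4 enzymes of the asparagine, serine and one-carbon group and 0 of 2 transsulfuration enzymes held it. Of all 27305 genes with a promoter, 4.46% did.

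Members with and without the core were set side by side, as a description. Of the 11 with it, 8 rose with cordyceps and their median log2 ratio was 1.24, from 0.15 for MARS1 to 2.99 for CHAC1. Of the 23 members with a promoter that lacked it, 10 rose and their median was 0.87. Of all 14902 named genes tested, 4.39% rose. Among the 8, SLC1A4, SLC7A1 and SLC3A2 hold the core across or after the start. With another background correction SLC7A1 (0.91) and SLC1A4 (0.47) of the 8 and ATF5 (0.92) of the 10 were under 2-fold. Whether the core bears on the rise was not tested. With cordycepin the medians were 0.39 and 0.09, and 1 of the 11 (CHAC1) and 2 of the 23 (DDIT3 and PPP1R15A) rose, with DDIT4 falling among the 23. There 6.01% of 15762 named genes rose and 3.61% fell. The strongest riser with cordyceps, DDIT3, is among those without the core in this window.

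**Figure D3:**
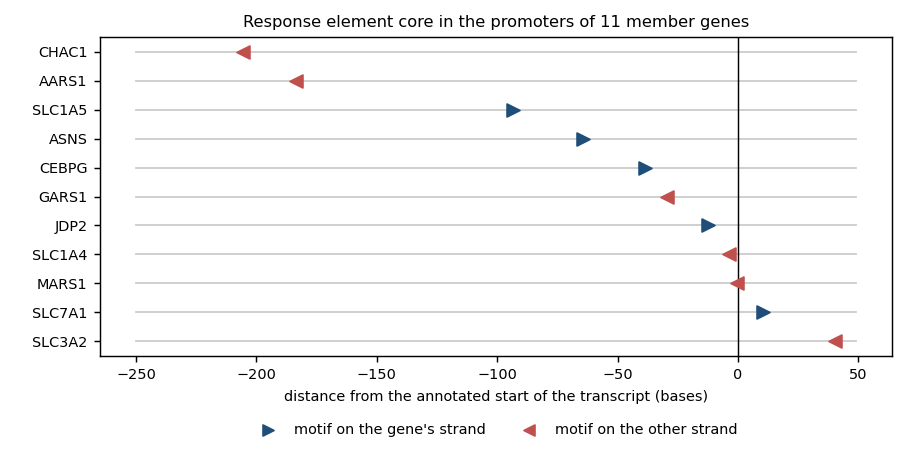
Centre of the TGATGNAA core in the promoters of the 11 members that hold it, as distance in bases from the annotated start of the transcript (0). Arrowheads pointing right are on the strand of the gene and those pointing left on the other strand, and 7 of the 11 lie wholly before the start.

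Among the transcription factors and feedback regulators, 6 of 9 rose with cordyceps and 3 of 9 with cordycepin (of all named genes, 4.39% and 6.01%). DDIT3, also called CHOP, is a C/EBP-like factor that promotes cell death under lasting stress. Its signals were 482, 1038 and 9213, which is 2.50-fold higher with cordycepin and 19.1-fold higher with cordyceps. Counting itself, 54 of the 14902 genes tested were as high in cordyceps over control. All 3 arrays were well separated for this gene, with cordyceps 7.65-fold above cordycepin.

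PPP1R15A, known as GADD34, brings a phosphatase to eIF2 and so closes the feedback loop. It had signals of 239, 474 and 1355, and rose 2.30-fold with cordycepin and 5.67-fold with cordyceps. Its rise with cordycepin rested on the scaling, since the log2 ratio of 1.20 became 0.94 with median scaling and 0.99 with no scaling, both under 2-fold. TRIB3, a pseudokinase that binds ATF4 and restrains it, gave 17123, 15493 and 75948 at its corner probe. The control and cordycepin arrays were level (log2 ratio 0.07), whereas cordyceps was 4.43-fold higher.

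NUPR1, a small chromatin-associated stress protein, rose about equally on both treated arrays. Its signals were 1309, 2747 and 3175, or 2.43-fold with cordycepin and 2.42-fold with cordyceps once each array was scaled. CEBPG, a C/EBP protein that pairs with ATF4, measured 4127, 4673 and 9758 and rose 2.36-fold with cordyceps. ATF5, a relative of ATF4 whose translation is controlled in a like way, had signals of 157, 114 and 357 and rose 2.27-fold with cordyceps, a rise that fell to a log2 ratio of 0.92 with another background correction. For both, the cordycepin array stayed within 2-fold of control (log2 ratios 0.39 and -0.25).

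The mRNA of ATF4 itself, with signals of 67174, 55081 and 103388, did not reach 2-fold on either treated array. Its log2 ratio was -0.07 with cordycepin and 0.62 with cordyceps, the latter larger than the probe spread of 0.20. JDP2, a bZIP protein that represses AP-1 sites, measured 2170, 3027 and 3576, with log2 ratios of 0.69 and 0.72. CEBPB, another C/EBP factor, measured 32622, 34873 and 38227, with log2 ratios of 0.31 and 0.23. These 3 genes were the members of the group that rose on neither array.

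**Figure D4:**
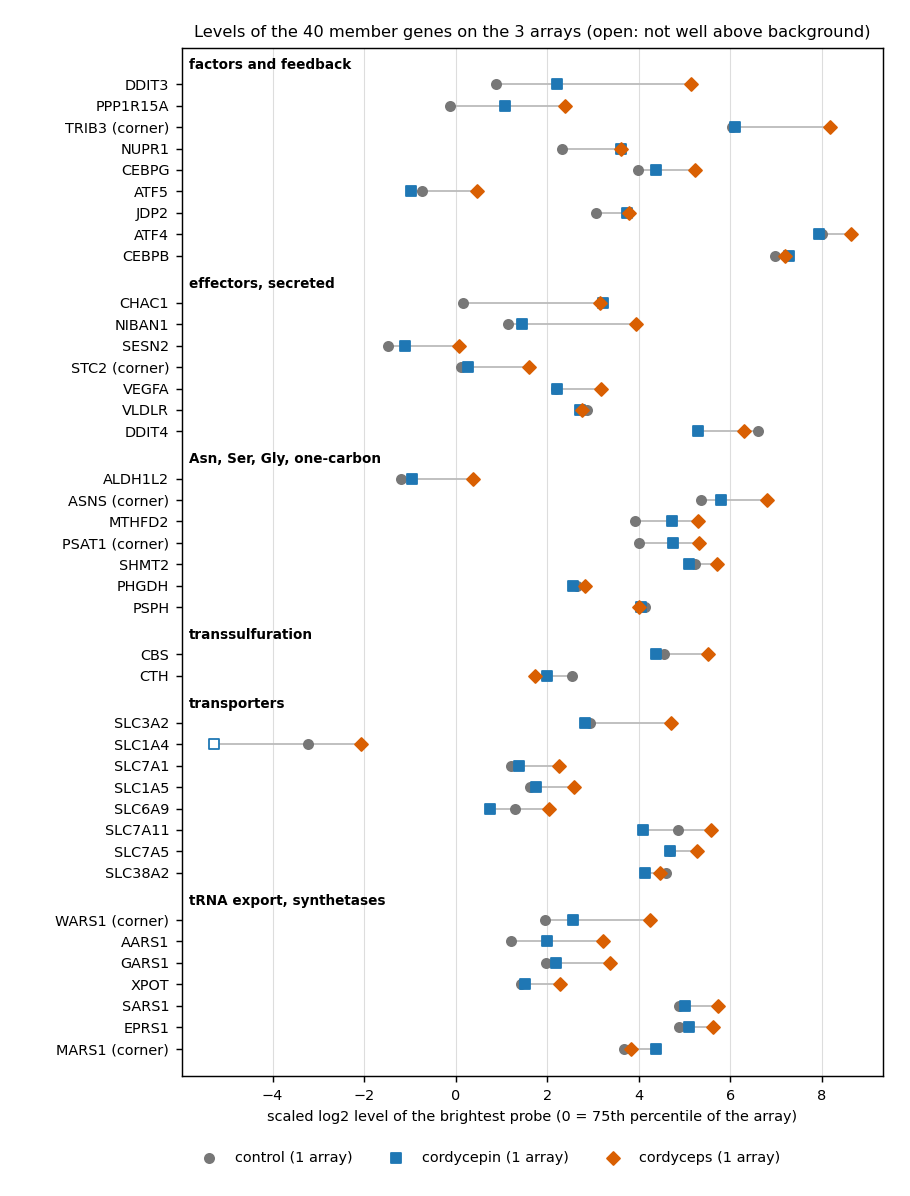
Scaled log2 level of each member's brightest probe on the control (circle), cordycepin (square) and cordyceps (diamond) arrays, with 0 at the 75th percentile of the array and members grouped by role. Levels can be compared along a row and not between rows, since each row is a different probe. For DDIT3, TRIB3 and NIBAN1 the diamond stands apart to the right, for CHAC1 and NUPR1 the square and diamond coincide, and for DDIT4 the square stands apart to the left.

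Among the stress effectors and secreted factors, CHAC1 was the one that rose on both treated arrays. CHAC1 is an enzyme that breaks down glutathione. Its signals were 293, 2075 and 2330, which is 8.22-fold higher with cordycepin and 7.95-fold higher with cordyceps. Counting itself, 49 of the 15762 genes tested were as high in cordycepin over control. A dimmer CHAC1 probe in the corner was not well above background on the control array and gave at least 3.20-fold for cordycepin and at least 4.58-fold for cordyceps.

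NIBAN1, a stress-induced protein linked to control of translation, separated the treatments. It measured 575, 614 and 4024, a log2 ratio of 0.31 with cordycepin and a 6.99-fold rise with cordyceps. SESN2, a leucine-binding inhibitor of mTORC1, measured 93.8, 105 and 275 and rose 2.93-fold with cordyceps. STC2, a secreted glycoprotein, gave 280, 273 and 788 at its corner probe, a 2.81-fold rise with cordyceps. Its dim control signal puts it in the class in which 24.6% of corner genes were higher, and the part of the corner in its rise was not tested.

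DDIT4, also called REDD1 and another inhibitor of mTORC1, ran the other way. Its signals were 25453, 8856 and 20365, so it fell 2.48-fold with cordycepin, and with cordyceps its log2 ratio was -0.32. It was the single member called as falling on either array, with SLC1A4 known only as a bound with cordycepin. VEGFA, an angiogenic growth factor, measured 1196, 1043 and 2355, and its log2 ratio of 0.98 with cordyceps lay just under 2-fold, with 0.55 at its other probe. VLDLR, a lipoprotein receptor, measured 1909, 1471 and 1759 at its brightest probe and stayed within 0.16 of control on the log2 scale in both comparisons.

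The enzymes that make asparagine, serine and one-carbon units did not all move alike. With cordyceps 4 of 7 rose, and with cordycepin 0 of 7 did (of all named genes, 4.39% and 6.01%). ASNS, which makes asparagine, had signals of 10715, 12547 and 29099 at a corner probe and rose 2.71-fold with cordyceps. PSAT1, the transaminase of serine synthesis, gave 4155, 6019 and 10356, also at a corner probe, and rose 2.49-fold. Both probes were bright, in the class in which corner and remaining genes were higher at shares of 1.45% and 1.09%, neither spot had an outlying local background on any array, and the part of the corner in their rises was not tested.

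A pair of mitochondrial folate enzymes, with probes outside the corner, also rose with cordyceps. MTHFD2, which oxidizes a one-carbon folate, measured 3962, 5935 and 10254 and rose 2.59-fold with cordyceps, where the local background of its spot was outlying (43 against 44 on the control array), a matter whose part in the ratio was not tested. ALDH1L2, which releases one-carbon units as carbon dioxide, measured 114, 115 and 341 and rose 2.98-fold. With cordycepin their log2 ratios were 0.80 and 0.23. MTHFD2 and PSAT1, at 0.80 and 0.75, had the highest ratios of this group with cordycepin.

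The other enzymes of serine and glycine synthesis did not reach 2-fold. PHGDH, the entry step of serine synthesis, measured 1634, 1332 and 1846, and PSPH, the last step, measured 4582, 3688 and 4210. Their log2 ratios with cordyceps were 0.18 and -0.12, within the probe spread of 0.20. SHMT2, which turns serine into glycine in mitochondria, measured 9730, 7646 and 13714, a log2 ratio of 0.49 with cordyceps and -0.13 with cordycepin.

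The transsulfuration pair, which carries sulfur from homocysteine to cysteine, did not move together. CBS, the first enzyme, measured 6095, 4652 and 11868, log2 ratios of -0.18 with cordycepin and 0.96 with cordyceps. CTH, the second, measured 1508, 900 and 861, log2 ratios of -0.53 and -0.81. Neither passed 2-fold against control, and CTH had the lowest cordyceps ratio of the 40 members.

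Of the 8 amino acid transporters, 3 rose with cordyceps and 0 with cordycepin (of all named genes, 4.39% and 6.01%). SLC3A2, the heavy chain that brings partner transporters to the cell surface, had signals of 1981, 1599 and 6747, a 3.40-fold rise with cordyceps. SLC7A1, a carrier of cationic amino acids, measured 603, 583 and 1244 and rose 2.06-fold. SLC1A4, a carrier of alanine, serine and cysteine, measured 28.0 on the control array and 62.3 on the cordyceps array, a 2.23-fold rise near the bottom of the detectable range. Neither of the last pair passed 2-fold under another background correction, which gave log2 ratios of 0.91 and 0.47.

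Both listed light chains that pair with SLC3A2 stayed within 2-fold of control. SLC7A5, a carrier of large neutral amino acids, measured 6639, 5803 and 10042, log2 ratios of 0.02 with cordycepin and 0.60 with cordyceps. SLC7A11, the exchanger that imports cystine, measured 7525, 3842 and 12372, log2 ratios of -0.76 and 0.72. The cordycepin array was thus the lowest for SLC7A11 and the cordyceps array the highest, and with median scaling its ratio with cordycepin became -1.02, past 2-fold.

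SLC6A9, a glycine carrier, repeated that order with signals of 643, 376 and 1064 and log2 ratios of -0.56 and 0.73. SLC1A5, a glutamine carrier, measured 799, 762 and 1556, log2 ratios of 0.15 and 0.96. SLC38A2, a small neutral amino acid carrier that starvation induces in many cells, measured 6318, 3968 and 5780. Its log2 ratios were -0.46 and -0.13, and its other probe gave -0.18 and -0.20, all under 2-fold. With cordyceps both probes lay within the probe spread of 0.20, and the brightest gave 0.14 with median scaling. As a group the transporters had medians of -0.12 with cordycepin and 0.84 with cordyceps.

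The genes of tRNA export and charging rose in 3 of 7 cases with cordyceps and 0 of 7 with cordycepin (of all named genes, 4.39% and 6.01%). AARS1, the alanyl-tRNA synthetase, had signals of 599, 894 and 2438 and rose 4.07-fold with cordyceps. GARS1, the glycyl-tRNA synthetase, measured 1018, 1026 and 2693 and rose 2.64-fold. WARS1, the tryptophanyl-tRNA synthetase and also an interferon-induced gene, gave 1011, 1319 and 4945 at a corner probe and rose 4.89-fold. The local background of its spot was outlying on the cordyceps array, at 37 against 40 on the control array, and the part of this in the ratio was not tested.

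The other genes of the group stayed under 2-fold at their brightest probes. XPOT, which exports tRNA from the nucleus, measured 695, 640 and 1269, a log2 ratio of 0.87 with cordyceps. SARS1, the seryl-tRNA synthetase, measured 7662, 7207 and 13890, a ratio of 0.86. Its other probe, a dim one in the corner (151, 223 and 401), gave 1.40, and the median over both probes, 1.13, passed 2-fold. EPRS1, which charges glutamate and proline tRNA, measured 7660, 7680 and 12818, a ratio of 0.74. MARS1, the methionyl-tRNA synthetase, measured 3314, 4667 and 3689 at a corner probe, ratios of 0.71 with cordycepin and 0.15 with cordyceps. Its probe outside the corner gave 0.09 and 0.29, so the probes of MARS1 differed in which treatment was higher.

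The treated arrays were also compared with each other, at doses of unlike substances that cannot be matched. Cordycepin was at least 2-fold under cordyceps for 16 of the 40 members and at least 2-fold over it for 0, where 5.66% and 7.88% of 15231 named genes were lower and higher. The members' median log2 ratio was -0.86, and that of all named genes was 0.05. Outside the corner the count was 13 of 34, where 4.16% of 12341 genes were lower and 7.95% higher, and the median was -0.83.

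The largest of these gaps were those of DDIT3 (log2 ratio -2.94), NIBAN1 (-2.50), TRIB3 (-2.08), SLC3A2 (-1.86) and WARS1 (-1.69). SLC7A11 (-1.47), SLC6A9 (-1.29) and CBS (-1.14) joined the 16 although none of them passed 2-fold against control on either array. CHAC1 (0.05), NUPR1 (0.01), JDP2 (-0.03) and CEBPB (0.08) differed between the treated arrays by less than the probe spread of 0.28. ASNS lay just short of 2-fold, as did DDIT4 at -0.99.

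Genes around the members were read from 4 further lists. The kinases that phosphorylate eIF2, the subunits of eIF2 and eIF2B and their partners had 14 genes with a probe, of which 1 rose with cordyceps and 0 with cordycepin, with medians of 0.12 and 0.02. Of all named genes, 4.39% rose with cordyceps and 6.01% with cordycepin, so these counts are near those shares. The riser was EIF2AK3, known as PERK, the kinase of the endoplasmic reticulum, with signals of 180, 171 and 407, a 2.27-fold rise. Its log2 ratio of 1.18 became 0.92, under 2-fold, with another background correction. The lowest of the list with cordyceps was GCN1, an activator of the amino acid sensing kinase, at a log2 ratio of -0.23. With cordycepin the list ran from -0.29 for EIF2B1 to 0.65 for PPP1R15B.

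Of other known ATF4 targets, 15 were tested, and SLC7A3 and FGF21 were not well above background on any array. The shares of all named genes that rose were 4.39% with cordyceps and 6.01% with cordycepin. With cordyceps 4 of the 15 rose, ATF3, GADD45A, GPT2 and PCK2, and the median log2 ratio was 0.74, with ALDH18A1 lowest at -0.18. ATF3, a stress-induced bZIP factor, measured 517, 1772 and 4542 at its brightest probe, 8.78-fold higher with cordyceps and 3.97-fold higher with cordycepin, but another of its probes gave -0.50 and -0.01 on the log2 scale. GADD45A, a growth arrest gene, rose 2.53-fold with cordyceps, GPT2, a mitochondrial alanine transaminase, 2.28-fold, and PCK2, a mitochondrial enzyme of gluconeogenesis, 2.17-fold. The local background of the GPT2 spot was outlying on the control and cordyceps arrays (37 on each), and the part of this in the ratio was not tested. With another background correction GPT2 (0.98) and PCK2 (0.94) fell under 2-fold, and the other PCK2 probe gave 0.31. With cordycepin 2 of the 15 rose, ATF3 and the secreted factor GDF15 (2.06-fold), with a median of 0.03 and PCK2 lowest at -0.39. GDF15 fell under 2-fold with median scaling (0.78) and with no scaling (0.83).

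The remaining tRNA synthetases were read by compartment, beside the 4.39% of all named genes that rose with cordyceps and the 6.01% with cordycepin. Of 13 other cytosolic synthetases 2 rose with cordyceps, CARS1 (2.28-fold, a corner probe with a dim control signal of 239) and YARS1 (2.13-fold, and 0.98 on the log2 scale with another background correction), with a median log2 ratio of 0.08 and VARS1 lowest at -0.38. The local background of the CARS1 spot was outlying on the cordyceps array (37 against 41 on the control array), and the part of this in the ratio was not tested. With cordycepin 0 of the 13 rose, from QARS1 at -0.56 to YARS1 at 0.47. Of 16 mitochondrial synthetases tested 0 rose on either array, with medians of -0.20 for cordyceps and -0.15 for cordycepin. RARS2 was highest with cordyceps at 0.42, and with cordycepin they ran from WARS2 at -0.94 to CARS2 at 0.28. The core TGATGNAA was present in 4 of 10 other cytosolic synthetase genes with a promoter in the table and in 1 of 14 mitochondrial ones. Of all 27305 genes with a promoter, 4.46% held it. In CARS1, NARS1 and TARS1 the core lay across or after the start, and in IARS1 and the mitochondrial YARS2 before it. It was also present in 4 of 12 other ATF4 targets and 1 of 13 genes of the eIF2 list. Whether the core bears on the ratios was not tested.

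**Figure D5:**
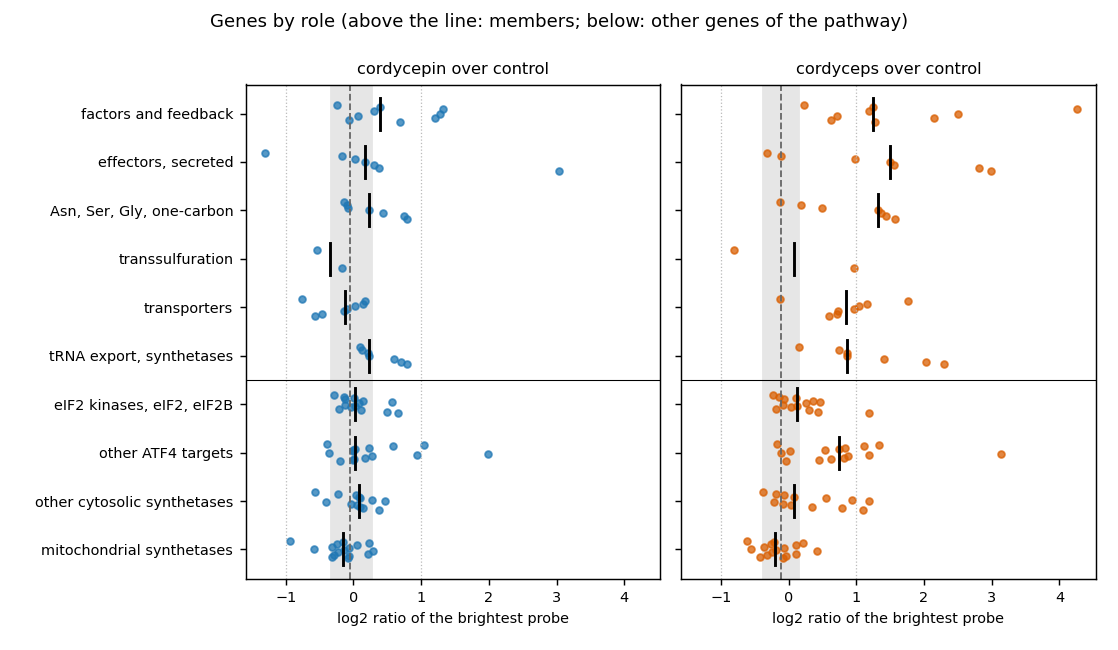
Log2 ratio of the brightest probe over control for each gene (points), with the median of each list (bar), for the 6 role groups of members above the line and the 4 further lists below it. The dashed line is the median of all named genes and the shading their middle 50%, and dotted lines mark 2-fold. On the right the member groups other than transsulfuration have medians of 0.84 to 1.49, and the mitochondrial synthetases lie around the dashed line at -0.20.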

How the data were processed

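RNA of A549 cells from 3 conditions was measured on Agilent whole-genome expression arrays, 1 array per condition. The authors deposited the spot intensities of each array as written by Agilent Feature Extraction 11.5.1.1, background-subtracted and not scaled between arrays. The methods of the study assign Cy5 to cordycepin RNA and Cy3 to vehicle RNA. As the deposited files hold 1 colour channel each, ratios were taken between arrays. The methods name GeneSpring for the fold changes with no further setting. Arrays limit precision by their number, and with 1 per condition no test was run.

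Spots flagged as outliers were left out (106, 80 and 63 on the control, cordycepin and cordyceps arrays), log2 intensities were reduced by the 75th percentile of the array, and spots printed for the same probe were averaged. Log2 ratios and folds were computed here from the deposited intensity values. Detection required the scanner's flag for a signal well above background on at least 50% of a probe's spots. With 1 side detected the ratio is a bound against the lowest signal well above background, or the probe's own value where higher. No spot was saturated (0 on each array).

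Probes were named through RefSeq accessions (31104 of 58201 probes, 22435 symbols), and the promoters are RefSeq's on GRCh38.p14. The array design uses another build, so no probe coordinates are given. The corner comprises rows above 5/8 and columns in the upper part of the array. The members, the role groups, the further lists and the markers were chosen with earlier results of these data known. All 40 members are named, and of the further lists the genes that passed 2-fold against control and the highest or lowest of each, apart from results that are not reported here. Calling was tried on simulated data with large changes on bright probes and no corner, which does not bear on calls near 2-fold or on dim probes. Scripts ran in Python 3.11.15 (pandas 2.3.3, numpy 2.4.6, matplotlib 3.10.9), and normexp with an offset of 50 in R 4.3.3 (limma 3.58.1). The 14 alternatives covered scaling, background correction, detection, outlier spots, the deposited value table, the median over the probes of a gene, the fold threshold and the corner.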

Additional observations from a re-analysis of the deposited data

How the results depend on the processing

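No called member changed direction under any of the alternatives. With cordycepin, DDIT3, CHAC1 and NUPR1 rose and DDIT4 fell under every alternative for scaling, background, detection, outlier spots, value table, probe choice and corner, and PPP1R15A did not with median scaling (0.94) or no scaling (0.99). With cordyceps, 17 of the 20 risers did so wherever those alternatives could test them, the exceptions being SLC1A4 (0.47), SLC7A1 (0.91) and ATF5 (0.92) with normexp. Of the 16 members lower with cordycepin than cordyceps, 14 held, and SLC1A4 (-0.44) and SESN2 (-0.79) did not with normexp. At 1.5-fold in place of 2-fold, 10 members rose and 2 fell with cordycepin, 31 rose and 1 fell with cordyceps, and 26 were lower with cordycepin than cordyceps (of all genes, 13.4%, 11.9%, 8.69%, 13.1% and 13.0%, in that order). At 3-fold, 1 rose and 0 fell with cordycepin, 8 rose with cordyceps, and 5 were lower with cordycepin than cordyceps (of all genes, 2.47%, 0.945%, 2.40% and 2.43%). These shifts follow from the threshold itself. With median scaling 2 members fell with cordycepin, DDIT4 and SLC7A11, and 30 were lower with cordycepin than cordyceps, where 1179 of 15891 and 2640 of 14694 genes were. The members' medians became -0.11 for cordycepin over control, 1.28 for cordyceps over control and -1.40 for cordycepin over cordyceps, because that scaling moves every ratio of a comparison by the same amount. With no detection filter, and with a positive and significant signal as the criterion, 2 members fell with cordycepin, the second being SLC1A4, whose value is then no longer a bound. Of the other counts and medians 104 stayed within 1.5 times the count or within the probe spread, as did 1528 of the values of single genes, with 179 moving further. No paired analysis was possible because each condition has 1 array. SLC1A4, with signals of 28.0 and 62.3 against a lowest detectable signal of 18.6 and 34.5 on the control and cordyceps arrays, is the member that depth of signal limits most.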

Other observations

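Some genes around the members were read by several probes. Among those whose probes disagreed were ATF3, MTHFD1L and KDM7A. For ATF3 the brightest probe gave log2 ratios of 1.99 with cordycepin and 3.13 with cordyceps, a corner probe gave 1.01 and 1.85, and a further probe outside the corner gave -0.01 and -0.50. The remaining ATF3 probe was not well above background on the control array and gave bounds of 1.39 and 2.31, and the median over the ATF3 probes was 0.50 with cordycepin and 0.67 with cordyceps. For MTHFD1L, a mitochondrial folate enzyme with the core TGATGNAA in its promoters in the table, the brightest probe gave -0.20 and -0.04. A corner probe of MTHFD1L gave -0.15 and 0.01 and its dimmest 0.54 and -0.09, so they differed with cordycepin and lay close together with cordyceps. For KDM7A, another listed ATF4 target, the brightest probe gave -0.01 and -0.11, and a dimmer one gave 1.04 and 0.48. The probes of IARS1, the isoleucyl-tRNA synthetase, lay close together, at 0.94 with cordyceps for its brightest probe, outside the corner, and 1.05 for both of its dimmer probes, which lie in the corner.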
